A study of Mus musculus with 8 samples.

Results

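The genes examined here encode the receptors through which acetylcholine acts on cortical neurons, together with the enzyme that removes it. They were taken by gene symbol from the table of RNA sequencing values, 10 genes in all: *Chrm1* to *Chrm5* for the muscarinic receptors, *Chrna4*, *Chrna5*, *Chrna7* and *Chrnb2* for the nicotinic receptor subunits, and *Ache* for acetylcholinesterase. Of these 10 genes, 9 were among the 15039 genes with values, and *Chrm5* had no value in the table used here.

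RNA was sequenced from the prefrontal cortex (PFC) of Rnf146-overexpressing mice and eGFP-overexpressing control mice, with 4 libraries per group, numbered 1 to 4 in each. All mice were C57BL/6NCrljOri males, labelled WT, injected bilaterally at the age of 6 weeks with AAV2/1 carrying either mouse Rnf146 and eGFP or eGFP alone, and dissected 4 weeks later. The hsyn promoter of the vector drives expression in neurons, whereas the RNA came from the whole dissected tissue, with infected and uninfected cells of every type together. Per the study's text, the Rnf146-overexpressing mice that were sequenced had been checked beforehand for overexpression and for social deficits, so they are not an unselected sample of injected animals.

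Acetylcholine reaches the PFC mainly through axons of cholinergic neurons in the basal forebrain, while few cells of the cortex itself make it. Muscarinic receptors are G protein-coupled: M1, M3 and M5 (*Chrm1*, *Chrm3*, *Chrm5*) act through Gq and phospholipase C and excite cortical neurons, and M2 and M4 (*Chrm2*, *Chrm4*) act through Gi/o, often as brakes on transmitter release. Nicotinic receptors are cation channels built from several subunits and respond within milliseconds. In the cortex, α4 and β2 subunits form the receptor with high affinity for nicotine, α5 joins it as an accessory subunit, and α7 forms a receptor of its own that passes calcium.

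The deposited values are on a log2 scale and were centred by the authors within pairs of same-numbered libraries, which makes the 2 values of a gene in a pair mirror images around its mean. A gene therefore holds a mean level and 4 independent differences, in log2 units, with positive values where the Rnf146 library was higher. Genes were tested with limma across the whole table with the pair as a block, and calls were made where the adjusted p was 0.1 or below. Levels of different genes are not compared, because the values are not per length. *Rnf146* itself was higher in all 4 pairs, by 2.64 ± 0.13 (SD, n = 4 pairs), which is the direction of the labels.

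Of the 9 genes with values, 1 changed. *Chrm1* fell in Rnf146-overexpressing mice, by 0.25 on the log2 scale, with an adjusted p of 0.054 from limma. None of the 9 was called as higher, although *Ache* and *Chrm2* lay higher in all 4 pairs by 0.22 and 0.20. The other 6 genes, which include the nicotinic subunits α4, α5, α7 and β2, had mean differences between -0.15 and 0.05. Over the whole table, 1.25% of the genes were called, 0.818% as higher and 0.432% as lower. At an unadjusted p below 0.05 from limma, 3 of the 9 genes passed, 1 lower and 2 higher, against 12.4% of all genes. The median difference of the 9 genes was -0.03, and that of all genes was 0.00086.

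**Figure D1:**
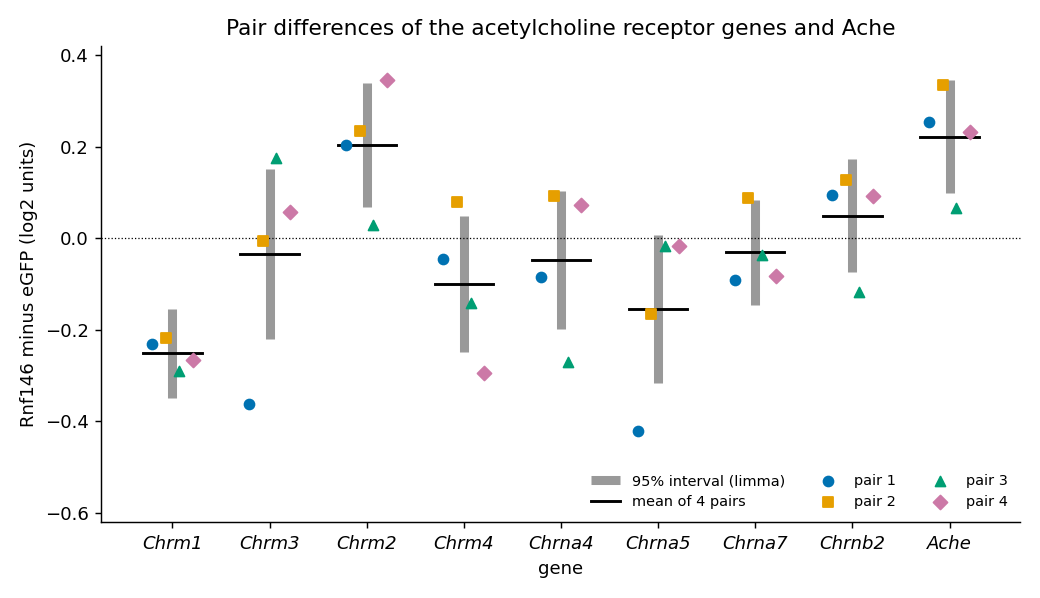
Rnf146 minus eGFP (log2 units) of the 9 genes with values: coloured symbols are the 4 pairs, black lines their mean and grey bars the 95% interval from limma. The 4 symbols of *Chrm1* lie close together between -0.29 and -0.22, and *Chrm2* and *Ache* lie above 0 in every pair, whereas *Chrm3* runs from -0.36 to 0.17.

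Among the receptors that act through Gq, *Chrm1* (GRCm39 chromosome 19, 8640962 to 8662278, plus strand) encodes M1, the main muscarinic receptor of cortical pyramidal neurons. Its pair-centred values were 12.27, 12.26, 12.30 and 12.29 in eGFP libraries 1 to 4. In the Rnf146 libraries they were 12.04, 12.05, 12.01 and 12.02. Every Rnf146 value was thus below every eGFP value. As the values are mirrored within pairs, this only restates that all 4 pairs fell. The narrow span of each group likewise restates the small spread of the 4 differences. The differences were -0.23, -0.22, -0.29 and -0.27 in pairs 1 to 4, which gave a mean of -0.25 ± 0.03 (SD, n = 4 pairs) and a 95% interval of -0.35 to -0.15 from limma. The SD of its pair differences was the smallest of the 9 genes, and 4.18% of all genes had a smaller one. In the order of limma's p-values *Chrm1* was number 83 of 15039. The decrease was called with all 4 pairs and without pair 1. With pair 2, 3 or 4 left out, its size stayed between -0.26 and -0.24, but the adjusted p was 0.198, 0.126 and 0.288, and the number of all genes called was 42, 169 and 14 in place of 188. At the stricter threshold of 0.05, *Chrm1* was not called.

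*Chrm3* (chromosome 13, 9925522 to 10410883, minus strand) encodes M3, which shares the Gq pathway with M1. Its values were 10.69, 10.52, 10.43 and 10.48 in the eGFP libraries and 10.33, 10.51, 10.60 and 10.54 in the Rnf146 libraries. The groups overlapped, and the pairs went in different directions, with differences of -0.36, -0.01, 0.17 and 0.06. The mean of -0.03 ± 0.23 (SD, n = 4 pairs) lay within the spread of the pairs (adjusted p = 0.911 from limma), and its 95% interval ran from -0.22 to 0.15. Pair 1 alone set the sign, since the mean was 0.08 without it. *Chrm3* had the largest SD of the 9 genes and *Chrm1* the smallest.

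**Figure D2:**
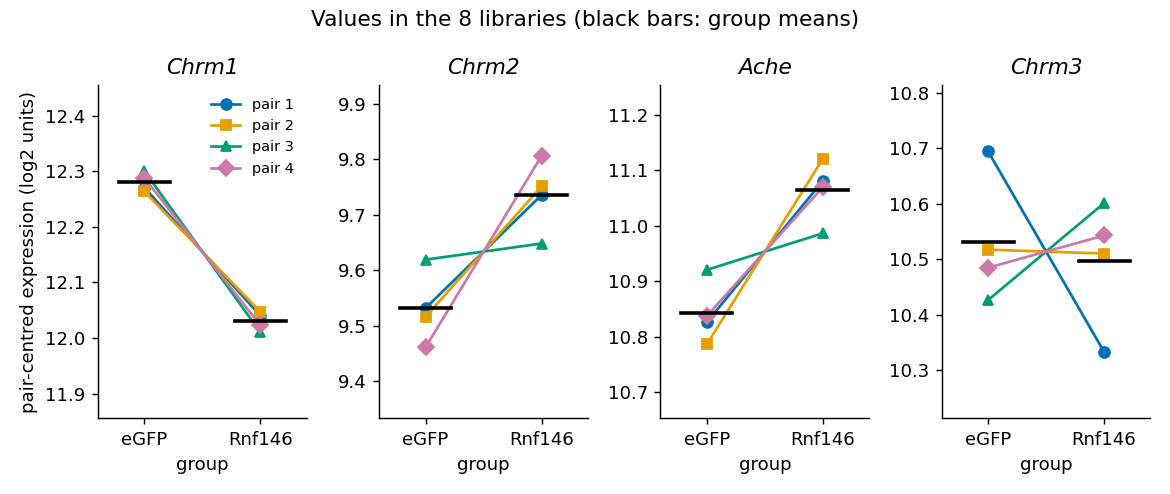
Pair-centred expression (log2 units) of *Chrm1*, *Chrm2*, *Ache* and *Chrm3* in the 8 libraries, with a line for each pair and black bars for group means; each panel spans the same number of log2 units around its gene's mean. All lines fall in *Chrm1* and rise in *Chrm2* and *Ache*, with pair 3 nearly flat in *Chrm2*, while the lines of *Chrm3* cross.

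Among the receptors that act through Gi/o, *Chrm2* (chromosome 6, 36364718 to 36505582, plus strand) encodes M2, known as the autoreceptor of cholinergic axon terminals and also found in some cortical interneurons. It read 9.53, 9.52, 9.62 and 9.46 in the eGFP libraries. The Rnf146 libraries read 9.74, 9.75, 9.65 and 9.81. The groups did not overlap, but in pair 3 they nearly met. The differences were 0.20, 0.23, 0.03 and 0.34, and their mean was 0.20 ± 0.13 (SD, n = 4 pairs, 95% interval 0.07 to 0.34). Limma gave an adjusted p of 0.216 with the pair as a block and of 0.018 without the block, so *Chrm2* was called only in the fit that counts the centred values as 8 independent libraries. In that fit 21.5% of all genes were called.

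*Chrm4* (chromosome 2, 91757594 to 91759033, plus strand) encodes M4, which is best known from medium spiny neurons of the striatum. Its values were 9.62, 9.56, 9.67 and 9.75 in the eGFP libraries and 9.58, 9.64, 9.53 and 9.45 in the Rnf146 libraries. They overlapped, with a higher Rnf146 value in pair 2 and a lower one in the other pairs. The mean difference was -0.10 ± 0.16 (SD, n = 4 pairs), with a 95% interval of -0.25 to 0.05 and an adjusted p of 0.573 from limma. The 2 Gi/o-coupled receptors thus had mean differences of opposite sign, and neither was called with the block. Whether they differ from each other was not tested.

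None of the 4 nicotinic subunits passed the test, with the block or without it. *Chrna4* (chromosome 2, 180660173 to 180685339, minus strand) read 10.77, 10.68, 10.86 and 10.69 in the eGFP libraries and 10.68, 10.77, 10.59 and 10.76 in the Rnf146 libraries. Its groups overlapped, and its mean difference was -0.05 ± 0.17 (SD, n = 4 pairs; adjusted p = 0.829 from limma). Pair 3 stood lowest at -0.27, and without that pair the mean was 0.03. *Chrnb2* (chromosome 3, 89653502 to 89671953, minus strand), whose product pairs with α4, read 10.95, 10.93, 11.06 and 10.95 in the eGFP libraries and 11.05, 11.06, 10.94 and 11.05 in the Rnf146 libraries. It was higher in pairs 1, 2 and 4 and lower in pair 3, by 0.09, 0.13, 0.09 and -0.12 in the order of pairs 1, 2, 4 and 3. Its mean was 0.05 ± 0.11 (SD, n = 4 pairs; adjusted p = 0.765 from limma). For both subunits pair 3 had the lowest difference. *Chrnb2* overlaps *Adar*, which lies on the opposite strand and had a mean difference of -0.04 (adjusted p = 0.800 from limma); whether the authors counted reads by strand is not given in the sources used here.

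*Chrna5* (chromosome 9, 54888164 to 54918184, plus strand) encodes the accessory subunit α5, which in the cortex is typical of deep-layer neurons. Its values were 8.99, 8.86, 8.78 and 8.78 in the eGFP libraries and 8.57, 8.69, 8.77 and 8.77 in the Rnf146 libraries. The groups did not overlap, but most of the distance came from pair 1. The differences were -0.42, -0.16, -0.02 and -0.02, and their mean of -0.15 ± 0.19 (SD, n = 4 pairs) was less than their spread (adjusted p = 0.425 from limma). *Chrna7* (chromosome 7, 62731494 to 62862322, minus strand), the gene of the α7 subunit, read 9.25, 9.16, 9.23 and 9.25 in the eGFP libraries and 9.16, 9.25, 9.19 and 9.17 in the Rnf146 libraries. Its groups overlapped, its mean difference was -0.03 ± 0.08 (SD, n = 4 pairs), and its 95% interval from -0.14 to 0.08 was the narrowest of the 4 nicotinic subunits. With the limma standard errors of these subunits, a mean difference of 0.24 for *Chrna7* to 0.34 for *Chrna5* would have been needed for a call. Both genes lie toward the low end of the scale, on which the lowest value of any gene is 7.86.

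*Ache* (chromosome 5, 137285781 to 137292728, plus strand) encodes the enzyme that splits acetylcholine at the synapse. It read 10.83, 10.79, 10.92 and 10.84 in the eGFP libraries. The Rnf146 libraries read 11.08, 11.12, 10.99 and 11.07, so that the groups did not overlap. The differences were 0.25, 0.33, 0.07 and 0.23, and their mean was 0.22 ± 0.11 (SD, n = 4 pairs, 95% interval 0.10 to 0.34). In limma the adjusted p came to 0.142 with the block and to 0.0081 without it. With array weights the adjusted p was 0.096, and *Ache* was then called as higher. In mirrored values such weights can only give each pair, not each library, its own precision. A mean difference of 0.26 would have been needed for a call in the fit with the block.

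In 4 of the 9 genes the groups did not overlap: *Chrm1* and *Chrna5* were lower and *Chrm2* and *Ache* higher in all 4 pairs. With mirrored values, groups fail to overlap exactly when all 4 pairs go one way. Non-overlap therefore adds nothing to the 4 pair differences. Among all genes, 20.6% had groups that did not overlap, 10.4% with higher and 10.2% with lower values in Rnf146-overexpressing mice. Without the block, *Chrm1*, *Chrm2* and *Ache* were called, 3 of 9 genes, against 21.5% of all genes.

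**Figure D3:**
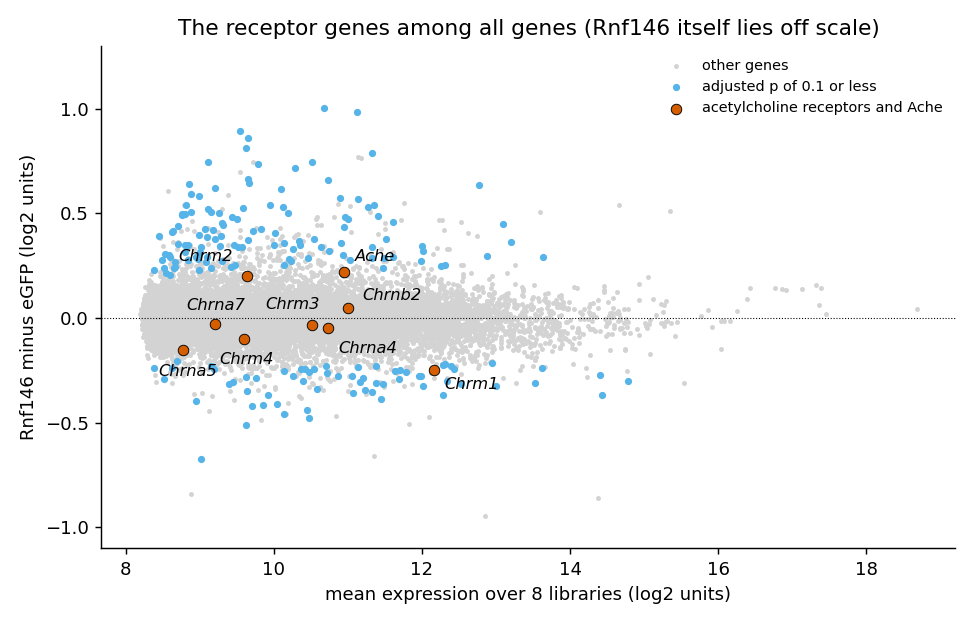
Mean expression over the 8 libraries against Rnf146 minus eGFP (both in log2 units) for every gene but *Rnf146*, which lies off scale; blue points were called and orange points are the 9 genes. *Chrm1*, at -0.25, was called and lies toward the lower side of the cloud, where genes that were not called lie as well. The other 8 orange points were not called.

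The genes whose 4 pair differences were nearest to those of *Chrm1*, by Euclidean distance over the whole table, were *Gal3st3*, *Pitpnm2* and *Kcnf1*. *Gal3st3*, a sulfotransferase gene, differed by -0.18, -0.26, -0.29 and -0.24 in the 4 pairs, at a distance of 0.070. *Pitpnm2*, which encodes a phosphatidylinositol transfer protein, had a mean difference of -0.21 at a distance of 0.092. *Kcnf1*, which encodes a modulatory potassium channel subunit, had a mean difference of -0.22 at a distance of 0.097. All 3 genes were called, as was *Chrm1*. The test uses the same 4 differences by which they were picked, so their calls are not separate evidence.

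Other genes of acetylcholine signaling were read from 5 lists, chosen by their role but with earlier results of these data known. The step of synthesis, storage and breakdown had 7 genes, of which 3 had values, and all 3 had positive mean differences. *Slc5a7*, the choline transporter that supplies cholinergic terminals, rose in all 4 pairs, by 0.21, 0.83, 0.37 and 0.62. Its mean was 0.51 ± 0.27 (SD, n = 4 pairs; adjusted p = 0.065 from limma), and with pair 2, 3 or 4 left out the adjusted p exceeded 0.1, at 0.176, 0.105 and 0.294. *Slc44a1*, a choline transporter of many cell types, and *Bche*, butyrylcholinesterase, were not called, with mean differences of 0.20 ± 0.19 and 0.20 ± 0.29 (SD, n = 4 pairs). Both were lower in pair 1 and higher in the other pairs, and *Slc44a1* was called without pair 1 (adjusted p = 0.038 from limma). *Chat* and *Slc18a3*, which make acetylcholine and load it into vesicles, had no value in the table used here.

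Of 12 further nicotinic subunits, only *Chrnb3* had a value, and its mean difference was 0.01 ± 0.12 (SD, n = 4 pairs; adjusted p = 0.975 from limma). The list of 9 genes that assemble or modulate nicotinic receptors, among them the chaperones *Tmem35a* and *Ric3* and the Ly6 proteins, had 0 genes called by limma and 0 at an unadjusted p below 0.05. Its mean differences ran from -0.15 for *Ly6e* to 0.12 for *Lypd1*, with a median of 0.02.

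Below the Gq-coupled receptors, 0 of 16 genes were called by limma. An unadjusted p below 0.05 was found for 6 of the 16, 4 higher and 2 lower, against 12.4% of all genes. The median difference of the 16 was -0.01, between -0.18 for *Dgkz* and 0.33 for *Dgkb*, which encode diacylglycerol kinases. Below the Gi/o-coupled receptors, 1 of 13 genes was called, against 1.25% of all genes. This was *Kcnj9*, which encodes a subunit of the inwardly rectifying potassium channels that Gβγ opens, and it fell in all 4 pairs, by 0.29, 0.36, 0.28 and 0.18. Its mean was -0.28 ± 0.07 (SD, n = 4 pairs; adjusted p = 0.055 from limma). Without pair 2, 3 or 4 its adjusted p was 0.264, 0.119 and 0.192. *Kcnj9* overlaps *Igsf8* on the opposite strand, which had a mean difference of -0.11 (adjusted p = 0.427 from limma). The other subunits of these channels, *Kcnj3* and *Kcnj6*, had mean differences of 0.05 and -0.09 and were not called with the block. The largest mean difference in the list was that of *Adcy5*, an adenylyl cyclase abundant in the striatum, at 0.41 ± 0.47 (SD, n = 4 pairs), which came to 1.03 in pair 2 and -0.11 in pair 1.

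**Figure D4:**
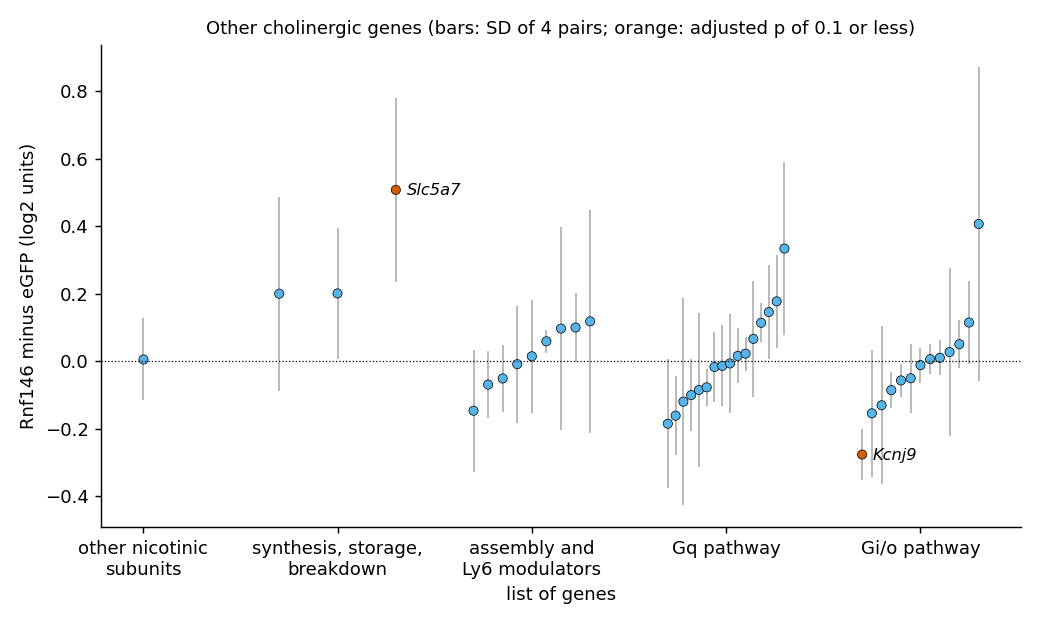
Rnf146 minus eGFP (log2 units) of the other cholinergic genes with values, by list and sorted within each list; points are means and bars the SD of 4 pairs, and orange marks called genes. Of all 42 genes drawn, *Slc5a7* at 0.51 and *Kcnj9* at -0.28 were called.

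In dissected tissue, fewer cells of a type and less RNA per cell cannot be told apart, and markers of several cell types differed between the groups. Of 12 markers of cortical excitatory neurons, all had values. Of these, 10 had a negative mean difference, 6 were lower in all 4 pairs, and 8 were lower at an unadjusted p below 0.05 from limma. Over all genes, 10.2% were lower in all 4 pairs and 12.4% had such an unadjusted p in either direction. *Slc17a7* and *Neurod2* were called as lower, against 0.432% of all genes. The markers averaged -0.22, -0.29, -0.02 and -0.16 in the 4 pairs, and the mean level of the list ran from 11.83 to 11.97 in the eGFP and from 11.68 to 11.81 in the Rnf146 libraries. *Chrm1* differed by -0.29 in pair 3, the pair in which the marker list differed least. The part of the excitatory neurons in the *Chrm1* decrease was not tested.

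Markers of the septum and basal forebrain, the home of the cholinergic neurons, had values for 7 of 10 genes. Of the 7, 6 were called as higher, against 0.818% of all genes. These were *Zic1*, *Zic2*, *Zic4* and *Zic5* of the Zic family, with *Isl1* and *Trpc4*. The list was chosen with earlier results of these data known, so its share of calls is not independent evidence. The mean of the 7 was 0.54, 0.67, 0.28 and 0.53 in the 4 pairs. Their mean level ran from 9.19 to 9.38 in the eGFP and from 9.66 to 9.86 in the Rnf146 libraries. Pair 3 had the smallest difference in this list, as it had in *Chrm2* and *Ache*. It also differed least in the lists of excitatory neurons, GABAergic interneurons, astrocytes and microglia. The largest difference fell in pair 2 for this list and for *Ache* (0.33), and in pair 4 for *Chrm2* (0.34). Of 8 markers of cholinergic neurons, *Slc5a7*, *Isl1* and *Ngfr* had values, and all 3 were called as higher. *Isl1* is shared with the list before and *Slc5a7* with that of synthesis, storage and breakdown, so their calls here are not separate evidence. All 3 genes had a mean value below 9, toward the low end of the scale. The mean level of these 3 genes ran from 8.33 to 8.51 in the eGFP and from 8.79 to 8.97 in the Rnf146 libraries. *Chat*, *Slc18a3*, *Lhx8* and *Gbx1* were among those with no value. The part of such cells in the values of *Chrm2*, *Ache* and *Slc5a7* was not tested.

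Markers of striatal medium spiny neurons had values for 11 of 12 genes and positive mean differences in all 11. By limma 0 were called and 10 had an unadjusted p below 0.05, against 12.4% of all genes. They averaged -0.10, 1.29, 0.69 and 0.26 in the 4 pairs, and the mean level ran from 9.77 to 10.46 in the eGFP and from 10.37 to 11.06 in the Rnf146 libraries. *Chrm4* differed by 0.08 in pair 2 and by -0.14 and -0.29 in pairs 3 and 4. *Adcy5* was highest in pair 2, as this list was. The part of such cells in the values of *Chrm4* and *Adcy5* was not tested.

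The remaining lists were read in the same way. Of 9 genes listed for GABAergic interneurons, *Gad1*, *Gad2* and *Slc32a1* were called as higher, against 0.818% of all genes, but these 3 are not particular to interneurons. The interneuron subtype markers *Pvalb*, *Sst*, *Vip*, *Lhx6*, *Adarb2* and *Ndnf* had negative mean differences and were not called. The 8 oligodendrocyte markers averaged -0.13 in pair 1 and 0.47 to 0.90 in the other pairs. By limma 0 were called and 8 had an unadjusted p below 0.05, all higher, against 12.4% of all genes. None of the 6 astrocyte, 6 microglia and 5 endothelial markers was called, with medians of -0.06, -0.14 and 0.03. All 6 microglia markers had negative mean differences, and 5 were lower in all 4 pairs, against 10.2% of all genes. At an unadjusted p below 0.05 from limma, 3 microglia markers passed, all lower, and 0 astrocyte and 0 endothelial markers.

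**Figure D5:**
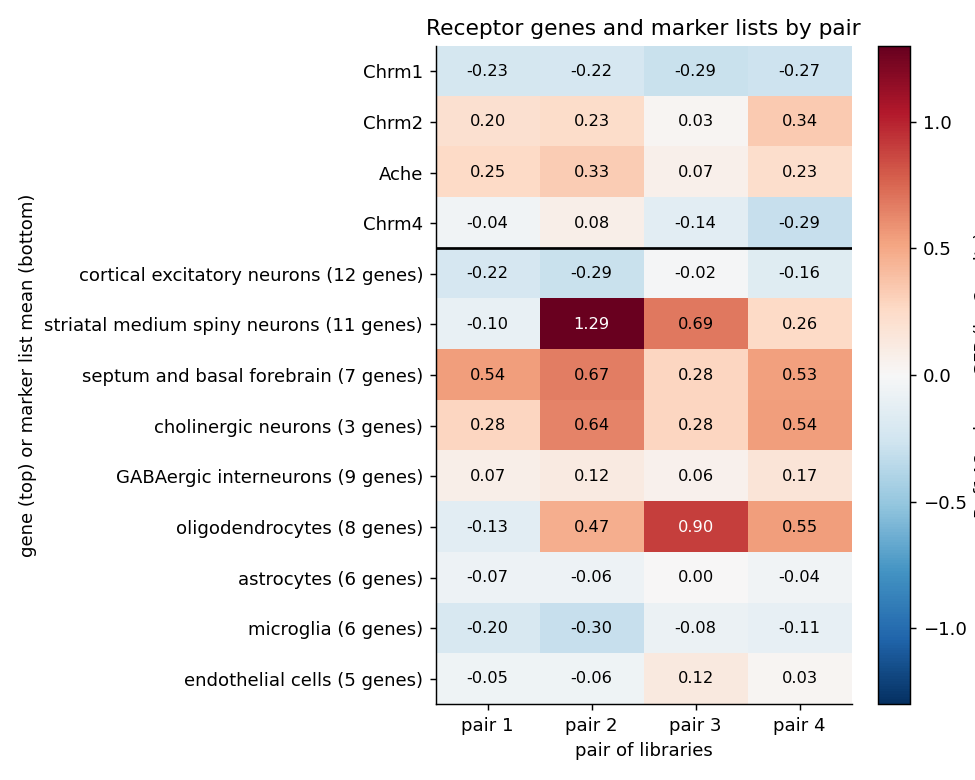
Rnf146 minus eGFP (log2 units, colour and printed value) in each pair for *Chrm1*, *Chrm2*, *Ache* and *Chrm4* (above the line) and for the mean of each marker list (below it). *Chrm1* is negative throughout, the septum and basal forebrain list is positive throughout, and the striatal list reaches 1.29 in pair 2.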

How the data were processed

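Reads of the 8 libraries (TruSeq stranded mRNA kit) were trimmed by the authors with Cutadapt and quantified with Salmon 1.9.0 against GENCODE vM30 (GRCm39). DESeq2 is named in the submitters' processing notes without a role. The deposited values are log2 values from 7.86 to 18.8, which the authors had centred within same-numbered pairs (largest spread of the pair sums, 1.4e-13). The transformation is not given in the sources used here, and the depth is unknown, so no count-based test was run.

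Here limma 3.58.1 under R 4.3.3 (lmFit, eBayes with trend) was fitted to all 15039 genes with a block for the replicate number, p-values were adjusted after Benjamini and Hochberg, and calls were made at an adjusted p up to 0.1, the threshold the study used. The centring fixes the correlation of same-numbered libraries at -1. The pairing comes from the labels; whether paired mice had a cage, a day or a batch in common, and whether each library is 1 mouse, is not stated, so p-values measure the spread between these pairs, which may be technical. The fit was tested on simulated data in which pair differences were drawn independently for each gene. That test does not cover genes that move together within a pair. Alternatives were no block, a minimum mean value of 9, a common median, quantile normalization, other variance priors, array weights, an adjusted p of 0.05 and each pair left out. For the differences of single cholinergic genes beyond the 9, and of genes overlapping *Chrnb2* and *Kcnj9*, they were added after seeing the data.

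The genes and lists were chosen with earlier results of these data known. Named were all members, the called genes of each list, and the 3 genes nearest to a called member. The outermost genes were named only for the lists of other cholinergic genes. *Tmem35a*, *Ric3*, *Kcnj3*, *Kcnj6*, *Slc44a1*, *Adar*, *Igsf8* and further marker names were chosen after their values were seen. Coordinates are from GENCODE vM39 (GRCm39).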

Additional observations from a re-analysis of the deposited data

Results flagged for a closer look

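In *Chrnb2*, the gene of the nicotinic β2 subunit, pair 3 stood apart from the other pairs. Its difference was -0.12, against 0.09 to 0.13 in pairs 1, 2 and 4, and the gap to the nearest pair made up 0.857 of the whole range, above the critical value of 0.829 for 4 values. Chance flags about 1 in 20 such groups, and 9 genes were examined. Without pair 3 the mean difference of *Chrnb2* was 0.10, with an adjusted p of 0.503 from limma.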

How the results depend on the processing

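The direction of the *Chrm1*, *Chrm2* and *Ache* differences was the same under every alternative tried, while the calls depended on several. Without the replicate block, which takes the paired values as 8 independent libraries, 3226 genes were called (1655 higher, 1571 lower) in place of 188 (123 and 65). Of the 9 receptor and *Ache* genes, 3 were then called, 2 of them higher (*Chrm2* and *Ache*), and 16 of the other cholinergic genes, 10 higher and 6 lower, in place of 2. With array weights 355 genes were called (221 and 134), 2 of them among the 9 genes, with *Ache* as the 1 higher. At an adjusted p of 0.05, 80 genes were called (67 and 13), 0 of them among the 9 and 0 among the other cholinergic genes. With a minimum mean value of 9, 1 other cholinergic gene was called and 0 as higher, because *Slc5a7* and *Chrna5* lay below that value. Leaving out each pair in turn, the number of called genes ran from 14 without pair 4 to 421 without pair 1, with 14 to 302 higher and 0 to 119 lower. Among the 9 genes it ran from 0 to 1, the 1 being *Chrm1* without pair 1, and among the other cholinergic genes from 0 to 4 (0 to 3 higher, 0 to 1 lower). The sign of the mean difference turned in *Chrm3* (-0.103 to 0.075), *Chrna4* (-0.094 to 0.027) and *Chrnb3* (-0.016 to 0.068), none of which was called. A common median, quantile normalization and the other variance priors changed no call among the 9 genes. The cause of these changes was not tested. The depth of the libraries is unknown, and the log2 scale of the deposited values may compress the changes of weakly expressed genes such as *Chrna5*.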
